A study of Saccharomyces cerevisiae with 6 samples.

Results

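The genes described are 10 enzymes of the pentose phosphate pathway of budding yeast, ZWF1, SOL3, SOL4, GND1, GND2, RPE1, TKL1, TKL2, TAL1 and NQM1, out of 5449 Saccharomyces cerevisiae genes measured. They were chosen by name, with earlier results of these data known. Of the 10 genes, 8 form 4 pairs of paralogs in which 1 copy is taken as the main isozyme and the other as the stress isozyme: SOL3 and SOL4, GND1 and GND2, TKL1 and TKL2, and TAL1 and NQM1. Each of the 10 genes has a single probe set on the array, and none of these is marked by its ID as shared with other sequences.

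The series compared cells of strain JJ816 whose only Hsp90 chaperone is hsc82-W296A, a form of Hsc82 in which a tryptophan is replaced by alanine, with cells whose only Hsp90 is wild-type (WT) Hsc82. In both groups the chromosomal HSC82 and HSP82 genes are deleted and the remaining Hsp90 is expressed from a plasmid, so the WT cells are not an unmodified strain. There were 3 cultures with hsc82-W296A and 3 with WT Hsc82, which the labels call biological replicates, and 1 Affymetrix array per culture. All cultures grew in rich glucose medium (YPD) at 30 degrees and were harvested in exponential phase at an optical density of 0.5.

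The pentose phosphate pathway branches from glycolysis at glucose 6-phosphate. Its oxidative steps, carried out by glucose 6-phosphate dehydrogenase (Zwf1), 6-phosphogluconolactonase (Sol3, Sol4) and 6-phosphogluconate dehydrogenase (Gnd1, Gnd2), make NADPH, which cells use for biosynthesis and against oxidants. Its non-oxidative steps, carried out by ribulose-phosphate epimerase (Rpe1), transketolase (Tkl1, Tkl2) and transaldolase (Tal1, Nqm1), interconvert sugar phosphates, supply ribose for nucleotides and return carbon to glycolysis. In yeast growing on glucose most of the transketolase, transaldolase and 6-phosphogluconate dehydrogenase activity is known to come from Tkl1, Tal1 and Gnd1.

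All 4 stress isozymes and ZWF1 rose in hsc82-W296A, between 4.14-fold and 14.4-fold, while the 4 main isozymes lay between -0.18 and 0.07 on the log2 scale in the deposited values. Of the 10 genes, 5 were called higher, 3 lower and 2 not, by limma with a Benjamini-Hochberg adjusted p under 0.05 over 5498 S. cerevisiae probe sets. Among all of these probe sets 67.1% were called, 36.9% higher and 30.2% lower, so a call in itself sets a gene little apart. The values of the groups did not overlap for 8 of the 10 genes, 5 higher and 3 lower in hsc82-W296A, where 73.5% of all probe sets did not overlap, 39.4% higher and 34.1% lower. At least 2-fold rises, which all 5 higher genes showed, made up 8.86% of probe sets, and at least 2-fold falls, which none of the 10 genes showed (limma, with 3 called lower at smaller changes), made up 0.873%. The 10 genes were chosen with earlier results of these data known, so an excess over these shares is not a test. Each change is the log2 value in hsc82-W296A minus that in WT, followed by its standard error (SE) in the limma fit, from which the adjusted p-values also come, with 3 arrays per group. Arrays of whole cultures cannot tell more transcript per cell from more cells that express the gene.

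**Figure D1:**
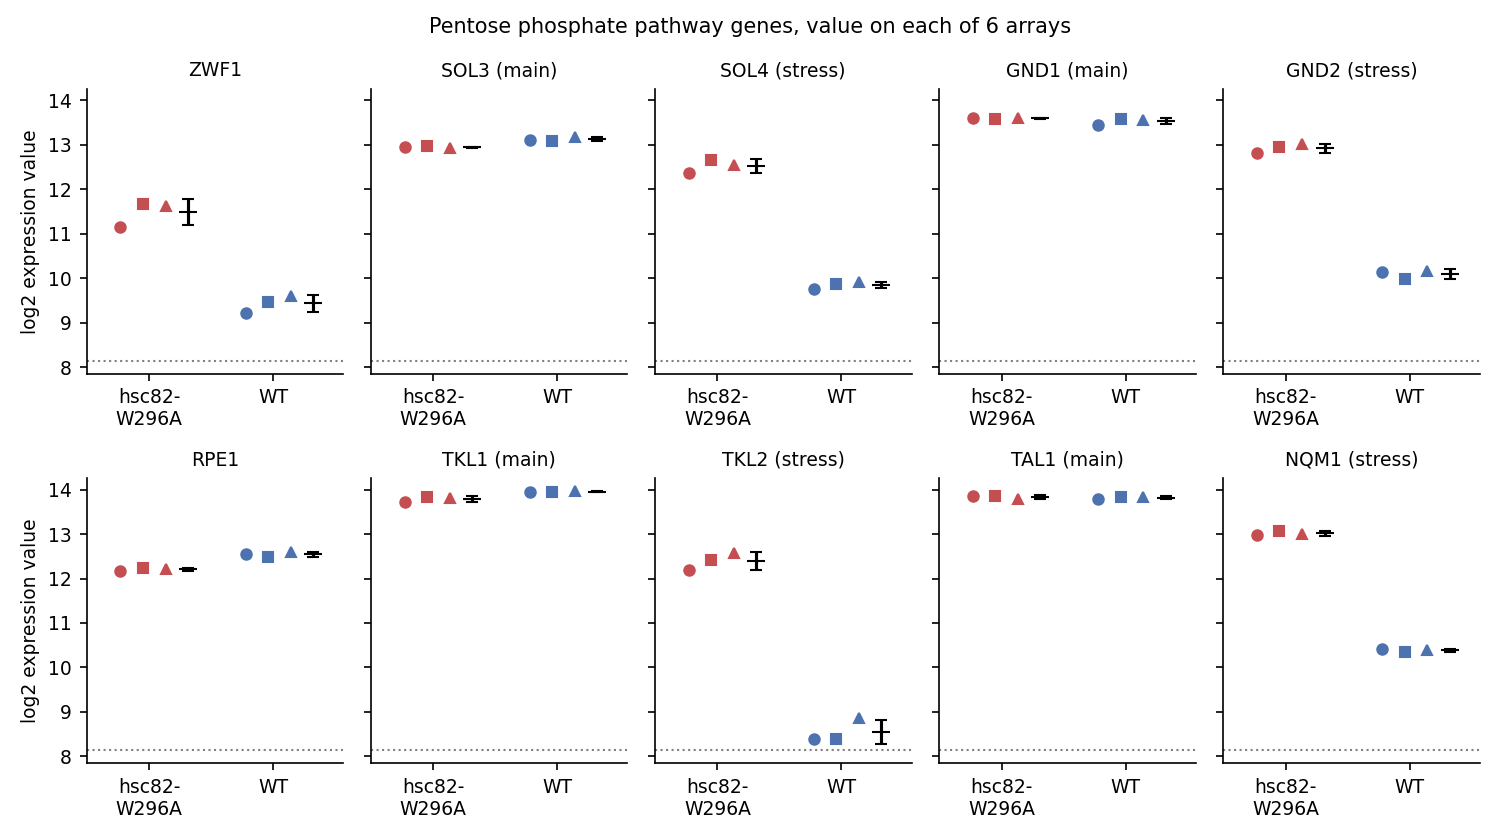
Log2 expression value of each gene on each of the 6 arrays, hsc82-W296A (red) left of WT (blue); circles, squares and triangles are replicates 1, 2 and 3, black bars the mean ± SD (n = 3), and the dotted line the background level of 8.14. SOL4, GND2, TKL2, NQM1 and ZWF1 stand clear of their WT values, whereas GND1 and TAL1 overlap with theirs; the height of a probe set cannot be compared between genes.

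ZWF1 encodes the enzyme of the first oxidative step and has no paralog in the set. It read 11.14, 11.67 and 11.63 in hsc82-W296A replicates 1 to 3, against 9.22, 9.47 and 9.61 in WT. The groups were separated by 1.53, and replicate 1 was the lowest array in both of them. The change was 2.05 ± 0.163 (adjusted p = 6.03e-05), or 4.14-fold, which ranked 108 of 5449 genes from the largest increase down. ZWF1 also varied most among the hsc82-W296A arrays of these 10 genes, with an SD of 0.295. Differences between arrays of the same replicate number were 1.93, 2.20 and 2.02.

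The lactonase pair that follows ZWF1 split. SOL4 read 12.36, 12.66 and 12.55 in hsc82-W296A, against 9.77, 9.88 and 9.91 in WT, a change of 2.67 ± 0.085 (adjusted p = 1.98e-06). Every hsc82-W296A value lay at least 2.45 above every WT value. SOL3, the main copy, read 12.94, 12.96 and 12.94 in hsc82-W296A, against 13.11, 13.09 and 13.18 in WT. SOL3 was thus lower on every hsc82-W296A array, but by a small amount, -0.18 ± 0.044 (adjusted p = 0.00910), which is 11.8% less signal.

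GND1 and GND2 encode 6-phosphogluconate dehydrogenase, the last oxidative and second NADPH-forming step. GND2 read 12.81, 12.94 and 13.01 in hsc82-W296A, against 10.14, 9.98 and 10.17 in WT, a change of 2.82 ± 0.076 (adjusted p = 1.11e-06), or 7.08-fold. GND1 read 13.61, 13.58 and 13.60 in hsc82-W296A, against 13.45, 13.58 and 13.56 in WT. The GND1 groups met at 13.58, and the change of 0.07 ± 0.049 did not pass (adjusted p = 0.267), with a 95% interval from -0.05 to 0.18. A probe set of GND2 could also take up GND1 transcript, since the paralogs are alike in sequence, and that was not tested. The same limit holds for the other paralog pairs, where it was not tested either.

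The epimerase gene RPE1, at the entry to the non-oxidative branch, fell. It read 12.17, 12.24 and 12.21 in hsc82-W296A, against 12.55, 12.48 and 12.60 in WT, with no overlap. The change of -0.34 ± 0.048 (adjusted p = 0.000842) corresponds to 20.8% less signal and was the largest decrease among the 10 genes.

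TKL2, the minor transketolase, showed the largest change of the 10 genes. It read 12.19, 12.41 and 12.58 in hsc82-W296A, against 8.38, 8.40 and 8.85 in WT. The change of 3.85 ± 0.153 (adjusted p = 4.50e-06), or 14.4-fold, ranked 4 of 5449 genes. In WT the probe set lay only 0.41 above the background level of 8.14, below which fall 95% of the means of probe sets that the array carries for another species, so the size of the fold is uncertain. The WT values of TKL2 also spread most among the 10 genes, with an SD of 0.269, replicate 3 being the highest. TKL1, the main transketolase, read 13.72, 13.84 and 13.80 in hsc82-W296A, against 13.95, 13.95 and 13.96 in WT. It was lower on every hsc82-W296A array, by -0.17 ± 0.046 (adjusted p = 0.0162), a call that ended without WT replicate 2 (change -0.17, adjusted p = 0.0528).

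The transaldolase pair closes the non-oxidative branch, and here too the minor copy rose. NQM1 read 12.97, 13.08 and 13.01 in hsc82-W296A, against 10.41, 10.34 and 10.40 in WT. Its arrays agreed closely, and the change of 2.64 ± 0.048 (adjusted p = 5.28e-07) had the smallest standard error of the 4 stress isozymes. TAL1 read 13.87, 13.85 and 13.78 in hsc82-W296A, against 13.78, 13.82 and 13.84 in WT. The TAL1 groups overlapped, and the change of 0.02 ± 0.045 was not called (adjusted p = 0.730), with a 95% interval from -0.09 to 0.13.

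To compare the copies of a pair directly, the log2 value of the main isozyme was subtracted from that of the stress isozyme on each array. The zero of this difference has no meaning because probe sets differ in brightness, but its shift between groups measures unequal change. For SOL4 minus SOL3 the difference was -0.43 ± 0.147 in hsc82-W296A and -3.28 ± 0.065 in WT (SD, n = 3 each), a shift of 2.85 ± 0.093 (SE). For GND2 minus GND1 it was -0.68 ± 0.110 in hsc82-W296A and -3.43 ± 0.152 in WT, a shift of 2.76 ± 0.108. For TKL2 minus TKL1 it was -1.39 ± 0.159 in hsc82-W296A and -5.41 ± 0.261 in WT, a shift of 4.02 ± 0.176, or 16.2-fold. In the TKL pair the highest WT difference, -5.11 in replicate 3, still lay 3.58 below the lowest in hsc82-W296A. For NQM1 minus TAL1 it was -0.81 ± 0.068 in hsc82-W296A and -3.43 ± 0.058 in WT, a shift of 2.62 ± 0.052.

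In all 4 pairs the shift was far larger than the widest range within a group, which was 0.46 for the TKL pair and 0.294 or less for the others. An exact two-sided permutation test over the arrays gave p = 0.1 for each of the 4 comparisons (0.1 after Benjamini-Hochberg adjustment over them), the smallest that 3 against 3 arrays allow, so this test cannot pass 0.05. The shifts of SOL4, GND2 and NQM1 against their partners lay within 0.235 of each other, and that of TKL2 was larger by 1.16 than the next. These differences between pairs were not tested. In WT TKL2 stood only 0.41 above background, so the size of its shift and its lead over the other pairs are uncertain.

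**Figure D2:**
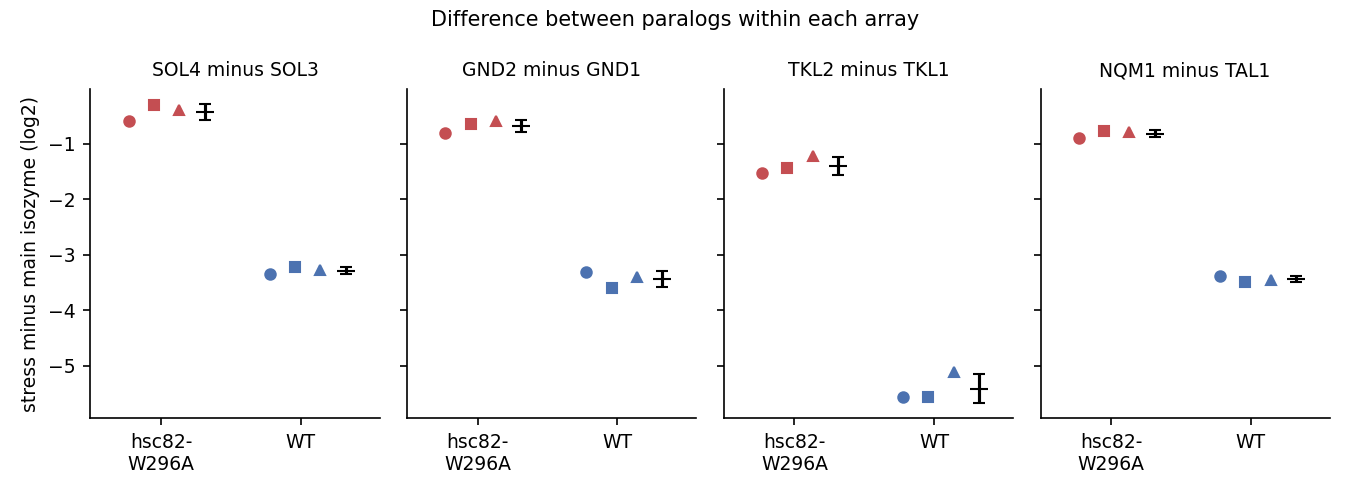
Log2 value of the stress isozyme minus that of the main isozyme on each array, for the 4 paralog pairs, hsc82-W296A (red) left of WT (blue), with symbols for replicates 1 to 3 and black bars for mean ± SD (n = 3). The groups are separated in each pair, by 2.48 for NQM1 minus TAL1 up to 3.58 for TKL2 minus TKL1. TKL2 stood close to background in WT, so the size of its shift is uncertain.

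The rises of ZWF1 and the stress isozymes kept their call however the arrays were scaled. Among the main isozymes SOL3 and TKL1 also kept their call as lower, with sizes that varied. The direction of GND1 and TAL1 depended on the scaling. Besides the deposited values, 3 scalings were used: quantile normalization, centring on the median, and a linear rescaling that matches background and middle, so that every array has the same median for each of both species. The median change over all S. cerevisiae probe sets was 0.04 in the deposited values and -0.06, -0.07 and -0.06 under these scalings, in that order. The median change of the 4 stress isozymes was 2.75 as deposited, and 2.60, 2.63 and 2.61 under these 3 scalings. That of the 4 main isozymes was -0.07 as deposited, and -0.12, -0.19 and -0.36. GND1 stood at -0.032, -0.050 and -0.22 and TAL1 at -0.022, -0.10 and -0.29 under the 3 scalings, and with background and middle matched both were called lower (adjusted p = 0.0250 and 0.0136). SOL3, TKL1 and RPE1 were lower under each scaling, at -0.43, -0.48 and -0.55 with background and middle matched.

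**Figure D3:**
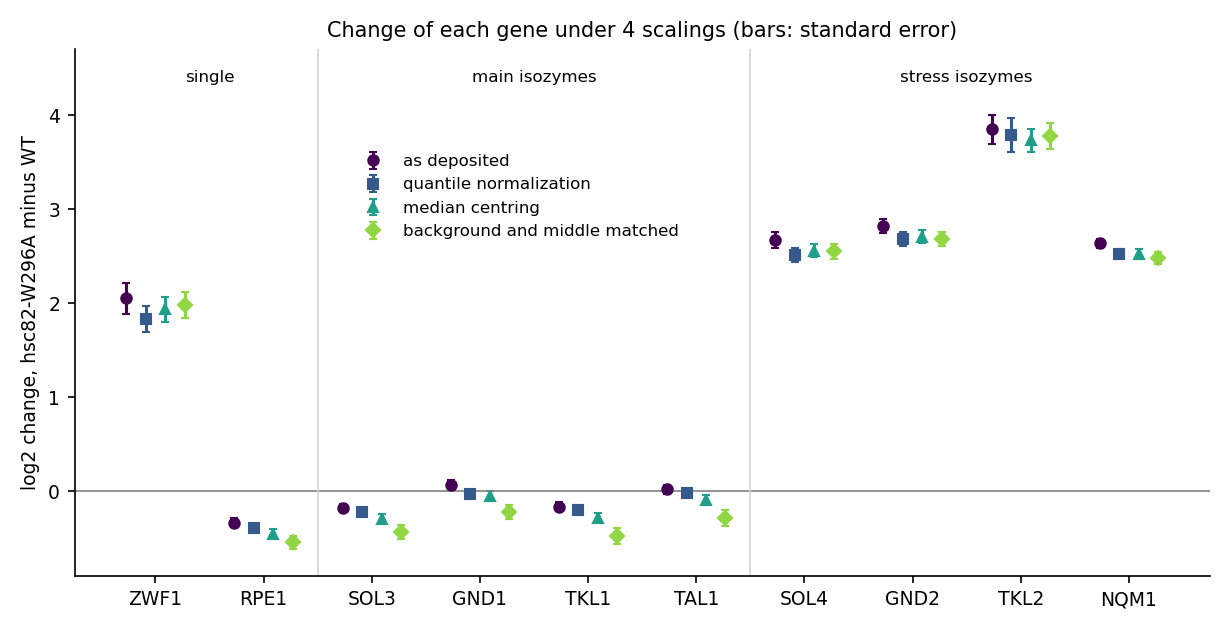
Log2 change (hsc82-W296A minus WT) of each gene as deposited and under 3 other scalings of the arrays, with bars for the standard error of the fit. The 4 stress isozymes and ZWF1 stay above 1.8 under every scaling drawn, whereas GND1 and TAL1 move from just above 0 to below it.

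The main isozymes read near the upper end of the array scale, whose highest value was 14.79 to 14.93. Whether signal was compressed there was not tested. Among the other genes of related lists, HXK2, the main hexokinase, stood at 13.24 in hsc82-W296A and 14.05 in WT, a change of -0.82 ± 0.041 (adjusted p = 1.02e-05). RKI1, less bright in WT than GND1, TAL1 and TKL1, stood at 12.63 in hsc82-W296A and 13.43 in WT, a change of -0.80 ± 0.045 (adjusted p = 1.56e-05). Other bright genes of these lists changed little. PGI1, ALD6 and TSA1, at 13.87, 13.99 and 14.38 in WT, changed by 0.10, -0.09 and 0.01 and were not called as deposited. TRX1 and TRX2, at 13.93 and 13.84 in WT, changed by -0.17 and 0.27.

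RKI1, ribose-phosphate isomerase, is the remaining enzyme of the core pathway and has no paralog here, so both genes that act on ribulose phosphate, RPE1 and RKI1, fell. In the list of 7 genes at the edges of the pathway 3 rose, 2 fell and 2 were not called, with a median of 0.13. Of all probe sets 36.9% were called higher and 30.2% lower. This list and those below were chosen with earlier results of these data known. SHB17, a sedoheptulose bisphosphatase that feeds the non-oxidative branch, fell by 0.54 ± 0.050 (adjusted p = 0.000118). XKS1, xylulokinase, rose by 1.46 ± 0.118 (adjusted p = 6.29e-05) and XYL2, xylitol dehydrogenase, by 1.29 ± 0.061 (adjusted p = 8.43e-06), both of which make substrate for the pathway from pentoses. SOL1 and SOL2 are relatives of SOL3 and SOL4 without a lactonase role assigned to them. SOL2 rose by 0.78 ± 0.097 (adjusted p = 0.000425) and SOL1 stood at 0.13 ± 0.053 (adjusted p = 0.0711), but was called at 0.16 without replicate 1 of either group (adjusted p = 0.0490 without hsc82-W296A replicate 1 and 0.0499 without WT replicate 1). YDR248C, a putative gluconokinase, was not called (0.05 ± 0.071, adjusted p = 0.571).

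Of 7 genes for making and using glucose 6-phosphate in glycolysis, 3 rose, 1 fell and 3 were not called, with a median of 0.10. The shares over all probe sets were 36.9% called higher and 30.2% lower. Genes for the phosphorylation of glucose went both ways. GLK1, glucokinase, rose by 1.69 ± 0.113 (adjusted p = 3.08e-05) and HXK1, the glucose-repressed hexokinase, by 1.05 ± 0.059 (adjusted p = 1.58e-05), while HXK2 fell as given above. EMI2, a relative of GLK1, rose by 0.32 (adjusted p = 0.0184), a call that ended without hsc82-W296A replicate 2 (0.31, adjusted p = 0.0591) or 3 (0.33, adjusted p = 0.0508). PGI1, PFK1 and PFK2, which carry glucose 6-phosphate down glycolysis, stood at 0.10, 0.05 and -0.08 and were not called. With background and middle matched 2 of the 7 rose and 4 fell, PGI1, PFK1 and PFK2 at -0.21, -0.25 and -0.37 among them, and PFK2 was called lower under each of the 3 other scalings. After quantile normalization 4 rose, because PGI1 was called higher at 0.09 (adjusted p = 0.0496), so its direction depended on the scaling.

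Ribose and erythrose phosphates made by the pathway are used in nucleotide and aromatic amino acid synthesis. The counts for both stand beside 36.9% of all probe sets called higher and 30.2% called lower. All 5 PRS genes, for the synthesis of phosphoribosyl pyrophosphate from ribose 5-phosphate, fell, with a median of -0.37 and a range from -0.63 in PRS4 to -0.17 in PRS2. All 5 were also called lower under each of the 3 other scalings, where the median lay between -0.41 and -0.62, but the PRS2 call ended without hsc82-W296A replicate 2 or 3 (adjusted p = 0.0680 and 0.0645). Of 5 genes of aromatic amino acid synthesis, which draws on erythrose phosphate, ARO1 rose by 1.09 ± 0.077 (adjusted p = 3.55e-05), while ARO7 fell by 0.96, ARO2 by 0.75 and ARO4 by 0.15, and ARO3 was not called, except with background and middle matched, at -0.25 (adjusted p = 0.0160). The ARO4 call ended in 4 of the 6 fits that left out an array, without WT replicate 2 or 3 or hsc82-W296A replicate 2 or 3, where the change was -0.17 to -0.11.

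Among other genes that supply NADPH or make NADP, 7 of 9 rose, where 36.9% of all probe sets did, and of the 9 genes 5 rose at least 2-fold, 1 fell and 1 was not called, with a median of 1.08. The list was chosen with earlier results of these data known, so its excess over that share is not a test. IDP2, the cytosolic NADP-dependent isocitrate dehydrogenase, read 13.22, 13.33 and 13.27 in hsc82-W296A, against 8.85, 8.89 and 9.16 in WT, a change of 4.30 ± 0.088 (adjusted p = 6.26e-07). Its mitochondrial counterpart IDP1 fell by 0.36 ± 0.049, and the peroxisomal IDP3 rose by 1.16 ± 0.113. YEF1, an NAD(H) kinase, rose by 2.11 ± 0.165 (adjusted p = 5.73e-05), and the other kinases UTR1 and POS5 rose by 0.30 and 0.33. In WT IDP2 stood 0.83 and YEF1 0.79 above background, so the sizes of their rises are uncertain. GCY1, a glycerol dehydrogenase that uses NADP, rose by 1.91, and MAE1, the mitochondrial malic enzyme, by 1.08. ALD6, the main cytosolic NADP-dependent aldehyde dehydrogenase, stood at -0.09 ± 0.069 and was not called (adjusted p = 0.283), but was lower at -0.16 without hsc82-W296A replicate 2 (adjusted p = 0.0310), at -0.21 with medians centred (adjusted p = 0.0257) and at -0.41 with background and middle matched (adjusted p = 0.00414). The UTR1 change was 0.16 with background and middle matched and no longer called (adjusted p = 0.0644).

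Of 9 genes that spend NADPH on oxidants or thiols, directly or through thioredoxin and glutathione, 6 rose, 2 fell and 1 was not called, with a median of 0.22. Over all probe sets 36.9% were called higher and 30.2% lower. TSA2, the minor peroxiredoxin, rose by 2.51 ± 0.087 (adjusted p = 2.64e-06), whereas TSA1, the major one, stood at 0.01 ± 0.038 (adjusted p = 0.753), or at -0.33 with background and middle matched (adjusted p = 0.00868). GRX1 and GRX2, glutaredoxins, rose by 0.69 each, TRX2 by 0.27, GLR1, glutathione reductase, by 0.22 and TRR2 by 0.15. TRR1, the cytosolic thioredoxin reductase, fell by 0.21 and TRX1 by 0.17. With background and middle matched 3 rose and 3 fell, with a median of -0.00067, and TRX2, GLR1 and TRR2 were no longer called, at -0.050, -0.00067 and 0.0082. GLR1 also lost its call with medians centred (0.11, adjusted p = 0.117), and TRR2 lost it with medians centred (0.036, adjusted p = 0.549) and with quantile normalization (0.067, adjusted p = 0.189). The calls of GLR1 and TRR2 also ended in 4 and 5 of the 6 fits that left out an array, where the lowest changes were 0.16 and 0.13.

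Among 7 transcription factors and kinases known to act on genes of this kind, 4 rose, 1 fell and 2 were not called, with a median of 0.35. Again, 36.9% of all probe sets were called higher and 30.2% lower. STB5, an activator of pentose phosphate genes in oxidative stress, stood at 0.06 ± 0.082 (adjusted p = 0.506), close to background. YAP1, the oxidative stress factor, rose by 0.35 ± 0.048 (adjusted p = 0.000648). MSN4, GIS1 and RIM15, of the general stress and post-diauxic response, rose by 0.68, 1.10 and 1.25, and MSN2 was at -0.03 (adjusted p = 0.742). SKN7 stood at -0.23 (adjusted p = 0.0377), a call that ended when any of 5 of the 6 arrays was left out, hsc82-W296A replicate 2 being the exception. Transcript levels of such factors do not report their activity.

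Markers of cells released from glucose repression moved in the same direction as the stress isozymes. All 12 genes of that list rose, 11 at least 2-fold, with a median of 2.25, where 8.86% of all probe sets rose at least 2-fold. The marker list was chosen with earlier results of these data known, so this excess is not a test either. The mean log2 value of the 12 markers was 10.90 to 11.13 on hsc82-W296A arrays and 8.69 to 8.85 on WT arrays, with 0 genes at or below background on each hsc82-W296A array and 2 or 3 on each WT array. FBP1, CTA1 and POX1 had WT means of 8.11, 7.83 and 7.27, below the background level of 8.14, so the sizes of their rises, which enter the median, are uncertain. ICL1, HXT5, MLS1, JEN1 and SFC1 stood at 8.84, 8.68, 8.55, 8.47 and 8.25 in WT, close to background, so the sizes of their rises are uncertain too. HXT5 rose by 3.32 ± 0.126 and PCK1 by 2.72 ± 0.081, while HXT1 and HXT3, glucose transporters of cells on ample glucose, fell by 2.12 and 0.37. Whether the cultures differed in the glucose left at harvest was not tested, and the part of it in the changes of the pentose phosphate genes was not tested.

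**Figure D4:**
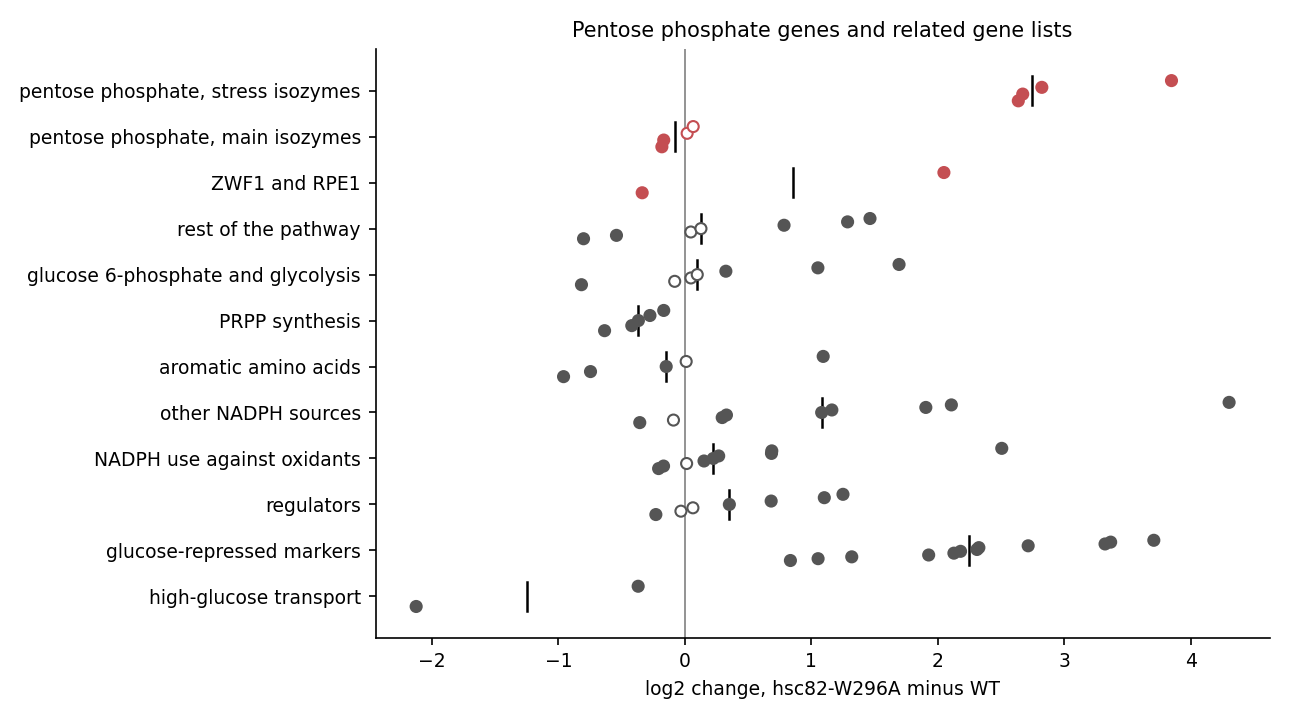
Log2 change (hsc82-W296A minus WT) of each gene, grouped in rows by list, with the pentose phosphate genes in red; filled points passed the limma threshold, open points did not, and the black tick is the median of the row. The stress isozymes lie between 2.64 and 3.85, the glucose-repressed markers between 0.83 and 3.71, and the main isozymes around 0. TKL2 is drawn above all 12 markers, but TKL2 and SFC1, the highest marker, stood close to background in WT, so their order is uncertain.

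The genes whose pattern lay closest to each stress isozyme were found by the Euclidean distance between centred log2 values over the 6 arrays, which mostly measures the size of the difference between groups. For SOL4 they were YHR033W, GLC3, the glycogen branching enzyme, and AGX1, alanine-glyoxylate aminotransferase, with changes of 2.72, 2.69 and 2.58. For GND2 they were NDE2, an external NADH dehydrogenase of mitochondria, SSA3, an inducible Hsp70, and MSC1, with changes of 2.84, 2.89 and 2.94. NDE2 stood at 8.50 in WT, close to background, so the size of its change and its place are uncertain. For TKL2 they were YDL218W, SFC1, a succinate-fumarate carrier, and MOH1, at larger distances of 0.34 to 0.46. YDL218W changed by 3.79 and SFC1 by 3.71, but SFC1 stood at 8.25 in WT, close to background, and MOH1 at 7.52 in WT, below it, so the size of their changes and their place in this order are uncertain. For NQM1 they were TFS1, an inhibitor of carboxypeptidase Y, CTT1, a catalase, and AGX1 again, with changes of 2.54, 2.60 and 2.58. No stress isozyme was among the 3 nearest genes of another.

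SOL4 and GND2 lie on chromosome VII of assembly R64 with 7 protein-coding genes between them, and SOL3 and GND1 on chromosome VIII with 20 between them. These intervals were looked at after the values of the pairs were known. Between SOL4 and GND2, 6 genes were measured, of which 2 rose and 3 fell, with changes from -0.73 in NOP19 to 0.88 in COQ6. Between SOL3 and GND1, 16 genes were measured, of which 7 rose and 5 fell, with changes from -1.07 to 1.03. Beside these counts, 36.9% of all probe sets were called higher and 30.2% lower. The enolase genes occupy the corresponding intervals: ENO1, between SOL4 and GND2, rose by 0.46 (adjusted p = 0.000401), and ENO2, between SOL3 and GND1, was not called at 0.04 (adjusted p = 0.482).

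The plasmid-borne HSC82 stood at 14.54 ± 0.016 in hsc82-W296A and 14.28 ± 0.035 in WT (SD, n = 3 each), which does not test the substitution. HSC82 was called higher as deposited, by 0.26 ± 0.041 (limma, adjusted p = 0.00139). With background and middle matched its change was -0.09 and no longer called (adjusted p = 0.368). HSP82, deleted in both groups, read 10.31 in hsc82-W296A and 10.03 in WT, and was called higher by 0.29 (limma, adjusted p = 0.00179). After quantile normalization its change was 0.036 and not called (adjusted p = 0.638). The probes of HSP82 may take up HSC82 transcript, so the deletion is not checked by them. Arrays correlated at 0.995 to 0.998 within groups and 0.917 to 0.941 between them. The median over S. cerevisiae probe sets was 11.07 to 11.13 on hsc82-W296A arrays and 10.94 to 11.04 on WT arrays, and that over probe sets of the other species 6.38 to 6.46 on hsc82-W296A arrays and 6.52 to 6.70 on WT arrays.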

How the data were processed

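The deposited values are log2 expression values, 1 per probe set and array, normalized across arrays by the authors, as judged from their range and their nearly equal array means. Per the labels' protocols, 5 µg of Trizol-extracted RNA was made into biotin-labelled cRNA for Affymetrix arrays. Limma appears in the submitters' processing notes without a stated role. How background was corrected and probes were normalized and summarized is not stated there. Arrays give no depth, and their number limits the precision.

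Of 10928 probe sets, 5498 were assigned to 5449 S. cerevisiae genes through the platform annotation and the gene IDs of assembly R64, which updated 12 symbols. A further 1746 belong to another species, 213 are controls, 1 has several genes and 3470 are unassigned. Where a gene had more than 1 probe set (47 genes), the one with the highest mean was used. Background was taken as 8.14, the 95th percentile of means over other-species probe sets.

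All 5498 probe sets were fitted with lmFit and eBayes (limma 3.58.1, R 4.3.3), hsc82-W296A minus WT, no block, Benjamini-Hochberg threshold 0.05. Pairs were compared by an exact permutation test (Python 3.11.15, scipy 1.17.1). Lists are described by counts and medians. Members and lists were chosen with earlier results of these data known. Named genes were the members, the list genes and the 3 genes nearest to each stress isozyme.

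Same-numbered arrays deviated together from their group means (correlations 0.405, 0.148 and 0.364 for replicates 1 to 3), each over 0.1, so the block was run as a paired alternative. Unlike-numbered arrays also passed 0.1 for hsc82-W296A 3 with WT 2 (0.14) and hsc82-W296A 2 with WT 3 (0.11), and were negative otherwise. No label gives a pairing by number. Promoter and protein sequences were not used here. Alternatives were other scalings, filters, variance priors and weights, the replicate block and leaving out each array. In simulated data with 5498 probe sets the fit called 15 of 50 changes of 0.25 (log2), 34 of 50 of 0.5, 49 of 50 of 1 and 50 of 50 of 2, with 4 false calls. Far fewer probe sets were changed there than the 67.1% called in the data, and noise was drawn independently for each array. The simulated counts therefore need not hold for the data, least of all for small changes.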

Additional observations from a re-analysis of the deposited data

How the results depend on the processing

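ZWF1, SOL4, GND2, TKL2, NQM1, SOL3 and RPE1 kept their direction and call under all 18 alternatives run for each, and 5 members were called higher under every one. The filters, variance priors and replicate block leave the change itself the same, so they could alter only the call. The mean over probe sets repeats the deposited result, because each gene has 1 probe set. Only the other scalings, the array weights and leaving out an array could alter a direction. ZWF1 ranged from 1.83 to 2.22, SOL4 from 2.51 to 2.76, GND2 from 2.68 to 2.97, TKL2 from 3.73 to 4.04 and NQM1 from 2.48 to 2.69. GND1, not called as deposited, reversed to -0.032 and TAL1 to -0.022 under quantile normalization, to -0.050 and -0.098 when medians were centred, and to -0.22 and -0.29 when background and middle were matched. Of these settings the last gave calls for both, so that 5 members were lower instead of 3, and the cause was not tested. Leaving out 1 array gave 2 to 3 members lower, TKL1 losing its call without WT replicate 2.

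The pair shifts kept their sign under all 12 alternatives, but not all of these could change it. Median centring, the replicate block, the filter for shared probe sets and the mean over probe sets leave a pair shift the same by construction. NQM1 minus TAL1 moved by more than its spread to 2.54 under quantile normalization and 2.77 when background and middle were matched. Leaving out 1 array gave 2.79 to 2.93 for SOL4 minus SOL3, 2.67 to 2.82 for GND2 minus GND1, 3.93 to 4.17 for TKL2 minus TKL1 and 2.59 to 2.66 for NQM1 minus TAL1. With the replicate number as a block the shift of TKL2 minus TKL1 was 4.02 ± 0.068, and the block changed no call among the 10 genes. Over all probe sets 1701 to 2462 were called higher and 1437 to 2330 lower, within 1.5 times the counts as deposited of 2028 and 1660. Higher calls made up 55.0% of all calls in the deposited values, 42.8% under quantile normalization, 42.3% when medians were centred and 44.1% when background and middle were matched. The estimate of array weights stopped before it converged. Array signal near background limits the fold of TKL2.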
